A study of Mus musculus with 6 samples.

Results

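The mRNAs of 7 heme synthesis enzymes, Alas1, Alad, Uros, Urod, Cpox, Ppox and Fech, were followed in mouse induced regulatory T cells (iTregs), in which Dlst, a gene of succinyl-CoA production, was targeted for deletion. They were taken by symbol from the 21899 listed genes, each symbol had a single identifier, and all 7 had enough counts to be tested. Bulk mRNA libraries came from 3 control samples (WT, named iWT in the design) and 3 samples of the inducible, Treg-directed Dlst knockout (KO, named Dlst-Treg iKO). In both groups CD4+ T cells from spleen were polarised for 2 days with 4-hydroxytamoxifen, which switches on tamoxifen-dependent Cre recombinase, and the cells sorted carried CD4 together with the reporters FoxP3-GFP and tdTomato. The labels do not name the Cre driver or the age of the mice, nor do they say that replicates were separate mice or cultures. The p-values therefore describe only how far these samples scatter, in part perhaps for technical reasons.

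Heme is an iron-porphyrin ring that serves cytochromes of the respiratory chain, catalase and gas-sensing enzymes. Its synthesis starts in mitochondria, where 5-aminolevulinate synthase joins succinyl-CoA, a product of the 2-oxoglutarate dehydrogenase complex that contains Dlst, to glycine. ALAS1 is the form used outside red cells and ALAS2 the erythroid form, and only this step uses succinyl-CoA itself. Cytosolic enzymes, ALAD, UROS and UROD among them, then build and trim the porphyrin ring, CPOX and PPOX oxidise it in mitochondria, and FECH inserts iron. Heme represses ALAS1 in many cells, and heme oxygenase 1 (Hmox1) breaks heme down.

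Libraries held 33590510 to 49772670 estimated counts, and the 7 genes had between 409 and 2108 counts each per library. Dlst itself was at 161, 149 and 149 CPM (counts relative to the TMM-scaled library total) in WT and 125, 129 and 129 CPM in KO. Its log2 fold change was -0.26 (edgeR adjusted p = 0.0894), so most counts of the gene remained. Counts per gene do not show which parts of the mRNA they come from, or whether it was intact. The decrease in Dlst passed by DESeq2 (adjusted p = 0.00182) and by edgeR without WT replicate 1 and KO replicate 1 together (0.0323). KO replicate 1 stood apart in sex. Its Y-linked genes summed to 151 TPM (a level relative to gene length and library total), against 0.167 to 0.284 TPM in the other 5 libraries. It thus held RNA of male cells. Summed markers of several other cell types lay higher in KO, although few single markers passed. Those of neutrophils summed to 13.6 to 91.2 TPM in WT and 191 to 863 TPM in KO, with 9 of the 9 tested among 10 markers above 0 in log2 fold change and 0 of them past the threshold by edgeR (9 at an unadjusted p under 0.05). Those of monocytes and macrophages summed to 24.8 to 37.7 TPM in WT and 118 to 463 TPM in KO, with 8 of the 8 tested among 12 above 0 and 1 past it, Mrc1 (log2 fold change 2.37, edgeR adjusted p = 0.0449). None of these markers was at 0 in all libraries. Both were highest in KO replicate 1. Basophil and mast cell markers summed to 4.03 to 6.51 TPM in WT and 10.1 to 14.2 TPM in KO, with 1 of 6 tested passing, Prss34. Dendritic cell markers summed to 2.11 to 2.71 and 3.68 to 5.18 TPM, with 1 of 4 passing, Itgax. CD8 T and NK markers summed to 34.7 to 59.0 and 66.4 to 78.6 TPM, with 0 of 4 passing by edgeR and 2 at an unadjusted p under 0.05. B cell markers were highest in WT replicate 1, at 94.0 TPM against 16.5 to 35.4 TPM elsewhere. In such bulk samples a change in the mix of cells and a change in RNA per cell cannot be told apart. Of 10 CD4 T and Treg markers tested, 0 rose, 1 fell and 9 did not pass, and 7 were below 0 in log2 fold change (median -0.06). The marker that fell was Ikzf2, the transcription factor Helios, at 30.8, 37.3 and 30.6 CPM in WT and 21.3, 23.0 and 22.1 CPM in KO, a log2 fold change of -0.57 with an edgeR adjusted p = 0.0366. Cd4 was at 506 to 522 CPM in WT and 432 to 465 CPM in KO, with no overlap (log2 fold change -0.19, edgeR adjusted p = 0.151). Cd3e was at 292 to 327 CPM in WT and 289 to 307 CPM in KO. The 3 markers above 0 included Trac, at 263 to 360 CPM in WT and 416 to 441 CPM in KO. Its groups did not overlap in CPM (log2 fold change 0.49, edgeR adjusted p = 0.111) but did in TPM. Foxp3, also above 0, was at 154 to 202 CPM in WT and 207 to 231 CPM in KO, with no overlap (0.26, edgeR adjusted p = 0.305).

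None of the 7 enzymes passed the test between KO and WT: 0 were higher and 0 lower at an adjusted p under 0.05 by edgeR's quasi-likelihood test. Of the 12768 tested genes 0.674% passed, 0.454% as higher and 0.219% as lower in KO. At an unadjusted p under 0.05 there were 3, Alad, Ppox and Cpox, against 15.1% of all tested genes, and DESeq2 also called 0. Their median log2 fold change was 0.06, against 0.00 over all tested genes, with 4 above 0 and 3 below it. The members did not share a direction. Ppox had the highest value, at 0.41, and Alad the lowest, at -0.31. In 4 of the 7, Alad, Cpox, Ppox and Fech, the CPM values of the groups did not overlap, 2 with KO higher and 2 with KO lower, against 22.8% of all tested genes in either direction. With 7 genes these shares are a description of the list.

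**Figure D1:**
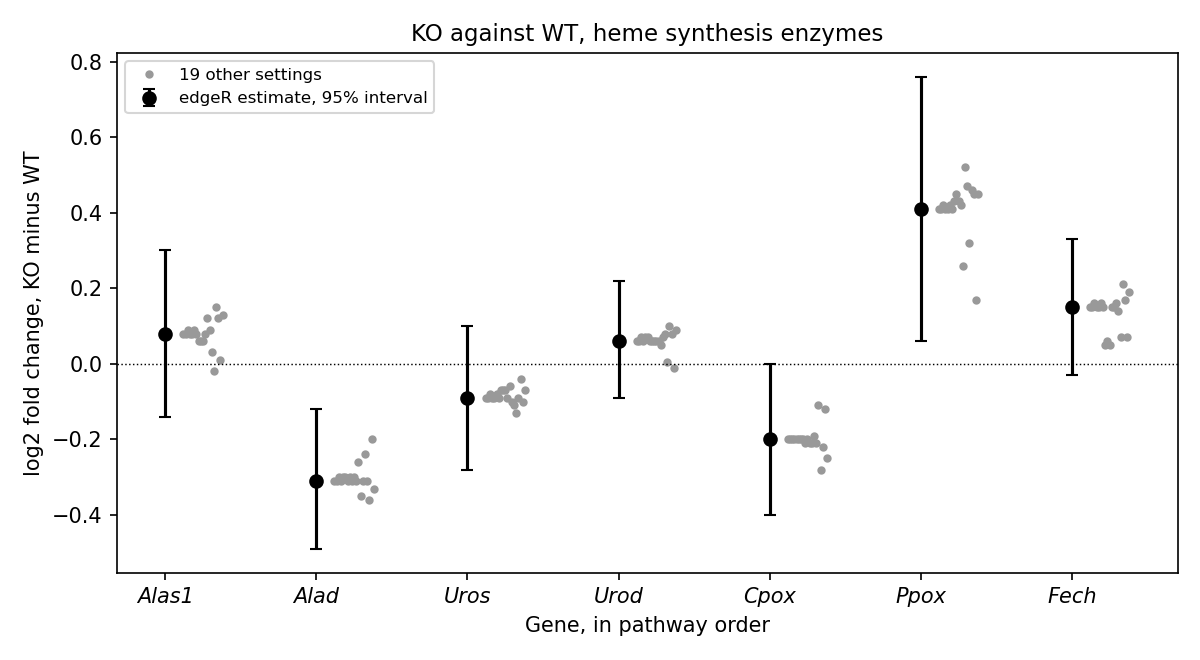
Log2 fold change, KO minus WT, of the 7 enzymes in pathway order, with the edgeR estimate and its 95% interval in black and the values under 19 other settings in grey. The intervals of Alad and Ppox lie on opposite sides of 0. That of Cpox lies below 0 and all but reaches it, while those of Alas1, Uros, Urod and Fech include 0.

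Alas1, the rate-limiting step and the one that consumes succinyl-CoA, stood at 36.7, 35.3 and 32.6 CPM in WT replicates 1 to 3 and at 42.1, 33.5 and 35.0 CPM in KO replicates 1 to 3. The groups overlapped, and KO replicate 1 was the highest of the 6 libraries. The mean was 34.9 ± 2.12 CPM for WT and 36.9 ± 4.57 CPM for KO (SD over 3 libraries). The log2 fold change was 0.08 (SE 0.09, edgeR adjusted p = 0.719), and its 95% interval runs from 9.01% lower to 23.3% higher in KO. Without KO replicate 1 the value was -0.02. Heme also acts on ALAS1 after transcription, for example on import of the protein into mitochondria, which mRNA counts do not measure. The erythroid gene Alas2 had between 0 and 5.3 estimated counts per library and was not tested.

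The region before a start of Alas1 holds the palindromic site of NRF1, a regulator of nuclear genes for mitochondrial proteins, shown here as 30 bases because Alas1 leads the pathway. It lies on the minus strand of chromosome 9 in RefSeq's table for GRCm38.p6, at chr9:106247907-106247936, within the span of the GENCODE gene. The capitals mark the site.
Alas1: ccgcacccaagGCGCATGCGCggcggtcac
The letters GCGCATGC, searched on both strands in the 250 bases before each start, were found in 2.26% of the 32851 windows in the table. Windows of 6 of the 7 members were searched, and none of Fech. Of these 6, Alas1 was the only one with a match. The overlapping matches at its single palindrome count as 1 site, and the window of its other start held no match. The mRNA of the factor, Nrf1, is among the related genes below.

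Alad, which condenses aminolevulinate into the pyrrole porphobilinogen, had the smallest p of the 7. It was at 27.4, 24.2 and 25.7 CPM in WT and at 19.1, 20.9 and 22.5 CPM in KO, so every KO library lay below every WT library. Group means were 25.8 ± 1.57 and 20.8 ± 1.71 CPM (SD, n = 3 each), a log2 fold change of -0.31 (SE 0.08, 95% interval -0.49 to -0.12). The unadjusted p was 0.00592 and the edgeR adjusted p 0.159, so Alad did not pass. Under the 19 other settings its value stayed between -0.36 and -0.20, with adjusted p from 0.0753 to 0.299. KO replicate 1 had the lowest level, and without it the value was -0.24. Counts of Alad were whole numbers in every library, and no gene in the tables overlaps it.

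Uros, which closes the porphyrin ring, had the lowest mean level per length of the 7. Its values were 13.4, 12.6 and 12.5 CPM in WT and 12.8, 12.2 and 11.3 CPM in KO. These overlapped, and the log2 fold change of -0.09 (SE 0.08, edgeR adjusted p = 0.659) has an interval from 17.6% lower to 7.5% higher. Uros shares 740 bases with Bccip on the other strand, whose log2 fold change was -0.03, and the sources used here do not say whether the counting used strand.

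Urod, which removes carboxyl groups from the ring, was at 35.4, 36.4 and 36.9 CPM in WT and 41.0, 35.7 and 36.9 CPM in KO. Only KO replicate 1 lay outside the WT range. The log2 fold change was 0.06 (SE 0.07, edgeR adjusted p = 0.68), with an interval from 5.83% lower to 16.2% higher. Of the 40 tested genes within 1 Mb of Urod 1 was called, lower in KO, and there was no call among the 6 to 38 such neighbours of each of the other members.

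Cpox, the mitochondrial oxidase that acts on coproporphyrinogen, was at 39.0, 40.1 and 38.9 CPM in WT and at 29.8, 37.8 and 35.0 CPM in KO. The WT libraries lay within a narrow band, and each KO library was below it, KO replicate 1 by the most. Group means were 39.3 ± 0.704 and 34.2 ± 4.05 CPM (SD, n = 3 each). The log2 fold change was -0.20 (SE 0.09) with an unadjusted p of 0.0487 and an edgeR adjusted p of 0.329. Without KO replicate 1 it was -0.11. The last 204 bases of Cpox overlap Gpr15 on the other strand, a homing receptor gene with 35 to 81 counts per library against 1266 to 1884 for Cpox. Gpr15 lay lower in KO without overlap (log2 fold change -0.77, SE 0.29, edgeR adjusted p = 0.274), and its part in the Cpox value was not tested. The 7 tested genes within 1 Mb of Cpox had a median log2 fold change of -0.28.

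Ppox, which oxidises protoporphyrinogen to protoporphyrin, showed the largest log2 fold change of the 7 and also the largest standard error. Its values were 13.0, 19.4 and 18.4 CPM in WT and 25.3, 21.0 and 21.5 CPM in KO, so every KO library lay above every WT library. WT replicate 1 was the low value and KO replicate 1 the high one. Group means were 17.0 ± 3.43 and 22.6 ± 2.32 CPM (SD, n = 3 each), a log2 fold change of 0.41 (SE 0.15, 95% interval 0.06 to 0.76). The unadjusted p was 0.0282 and the edgeR adjusted p 0.27. Without WT replicate 1 the value was 0.26, without KO replicate 1 it was 0.32, and without both it was 0.17. Ppox overlaps B4galt3, which is read from the other strand, by 907 bases. B4galt3 too had its lowest level in WT replicate 1 (21.8 CPM, with 26.4 and 26.3 CPM in WT replicates 2 and 3), but its log2 fold change was -0.02 (SE 0.08). The neighbour on the other side, Usp21, was at 0.07 (SE 0.06).

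Since Alad and Ppox stood farthest from 0 and on opposite sides, the 250 bases before a RefSeq start of each (GRCm38.p6, minus strand for both) are given. They lie at chr4:62520064-62520313 and chr1:171281187-171281436, and Alad has a further start whose window runs into its first exon and is not printed. Capitals mark the motifs searched on both strands, a GC box (GGGCGG), an E-box (CACGTG) and a CCAAT box (CCAAT).
Alad: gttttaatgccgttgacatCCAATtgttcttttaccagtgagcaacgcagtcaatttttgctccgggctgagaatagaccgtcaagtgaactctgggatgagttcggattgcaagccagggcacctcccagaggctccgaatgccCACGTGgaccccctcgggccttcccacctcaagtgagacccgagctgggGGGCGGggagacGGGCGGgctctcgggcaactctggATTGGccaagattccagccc
Ppox: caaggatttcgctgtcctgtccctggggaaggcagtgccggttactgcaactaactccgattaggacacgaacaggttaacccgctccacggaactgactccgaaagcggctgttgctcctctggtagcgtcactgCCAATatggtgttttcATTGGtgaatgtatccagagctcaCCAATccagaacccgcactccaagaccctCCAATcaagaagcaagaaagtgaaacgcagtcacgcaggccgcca
The Ppox window held 4 CCAAT boxes and neither of the other motifs. The printed Alad window held 2 GC boxes, 1 E-box and 2 CCAAT boxes. The window of its further start, which overlaps the printed one, held 6 GC boxes, 1 E-box and 1 CCAAT box. A CCAAT box was present in 33.8% of all windows in the table, a GC box in 32.7% and an E-box in 6.02%. No Alad or Ppox window had the NRF1 letters, a GATA site (AGATAA, in 9.99% of windows) or an antioxidant or MAF site (TGACNNNGC, in 10.2%). Other members shared some of these motifs. The Urod window held 1 GC box, 1 E-box and 1 CCAAT box. A Uros window held 1 GC box and 1 E-box, and its other window had neither. The log2 fold changes of Urod and Uros were 0.06 and -0.09. An Alas1 window held 1 GC box. The Cpox window had none of the motifs searched, and Fech was not searched. A match is a run of letters and not a measured site.

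Fech, which inserts iron into protoporphyrin and itself carries an iron-sulphur cluster, was at 27.3, 27.4 and 26.9 CPM in WT and 33.4, 27.7 and 29.4 CPM in KO. KO lay above WT without overlap on this scale, with a log2 fold change of 0.15 (SE 0.08, edgeR adjusted p = 0.403). In TPM the groups overlapped, at 24.0, 21.9 and 24.0 in WT and 26.3, 21.3 and 25.3 in KO, and the limma value on log2(TPM + 1) was 0.05. The length that the deposited TPM divide by, set to 1 in WT replicate 1, was 1.11 and 1.13 for Fech in KO replicates 1 and 2 and 0.987 to 1.07 in the others. For Alad and Cpox it was within 0.999 to 1.0 throughout.

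Per length, the 7 mRNAs were of middle abundance, between the 45.3 and 70.6 percentile of mean TPM among tested genes. Urod was highest in every library, at 43.7 ± 2.63 TPM over the 6 libraries (SD), and its range did not meet that of the next gene. Alad (33.6 ± 4.55 TPM) and Alas1 (33.2 ± 3.25 TPM) followed with overlapping ranges, both above Fech at 23.8 ± 1.92 TPM. Fech, Cpox (20.6 ± 2.13 TPM), Ppox (19.9 ± 4.12 TPM) and Uros (15.6 ± 0.852 TPM) overlapped, each with the next. All 7 together summed to 193, 186 and 193 TPM in WT and 199, 182 and 190 TPM in KO, and these ranges overlap.

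**Figure D2:**
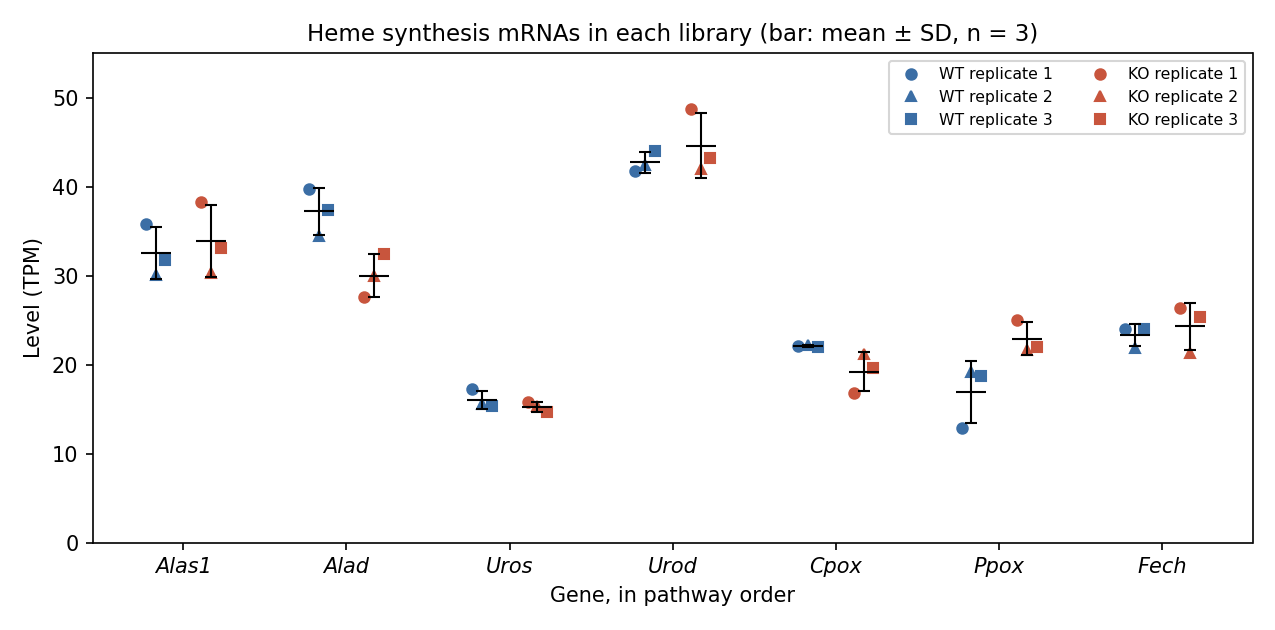
Level in TPM of each enzyme in the 3 WT (blue) and 3 KO (red) libraries, genes in pathway order, markers giving the replicate and black bars the mean ± SD of 3. Alad, Cpox and Ppox are the 3 of 7 genes whose groups do not overlap in TPM, against 21.4% of all tested genes, and Urod is highest in every library.

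Within that total, 2 orderings turned over between the groups, both picked after the values were seen. Alas1 per Alad was 0.901, 0.876 and 0.847 in TPM in WT and 1.39, 1.01 and 1.02 in KO: Alad was the more abundant in each WT library and Alas1 in each KO library. Cpox per Ppox was 1.71, 1.16 and 1.18 in WT and 0.671, 0.98 and 0.891 in KO. In KO replicates 2 and 3 Alas1 and Alad were nearly level. The mitochondrial enzymes Alas1, Cpox, Ppox and Fech summed to 94.7, 93.3 and 96.5 TPM in WT and from 94.4 to 106 TPM in KO, which overlap. The cytosolic enzymes Alad, Uros and Urod summed to 98.6, 92.4 and 96.6 TPM in WT and 92.1, 87.2 and 90.2 TPM in KO. Each KO library lay below each WT library, but narrowly, at 92.1 TPM in KO replicate 1 against 92.4 TPM in WT replicate 2. Taken singly, Uros and Urod overlapped and only Alad did not, against 21.4% of all tested genes without overlap in TPM.

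KO replicate 1 held an extreme value for 6 of the 7 enzymes. It was the highest of the 6 libraries in Alas1, Urod, Ppox and Fech and the lowest in Alad and Cpox. Across all tested genes 54.5% had their highest or lowest value in that library. It was also the library with the highest neutrophil and macrophage marker levels and the only one with clear expression of Y-linked genes. The part of those cells or of sex in these values was not tested. Without KO replicate 1 the median log2 fold change of the 7 was -0.02.
The erythroid markers were low in both groups. Slc4a1 had no counts and Hbb-bs had 2.0 to 18.5 counts per library. Gata1, which mast cells and basophils also use, made up most of the list's summed level of 9.02 to 11.6 TPM in WT and 8.57 to 13.1 TPM in KO, and these ranges overlap.

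**Figure D3:**
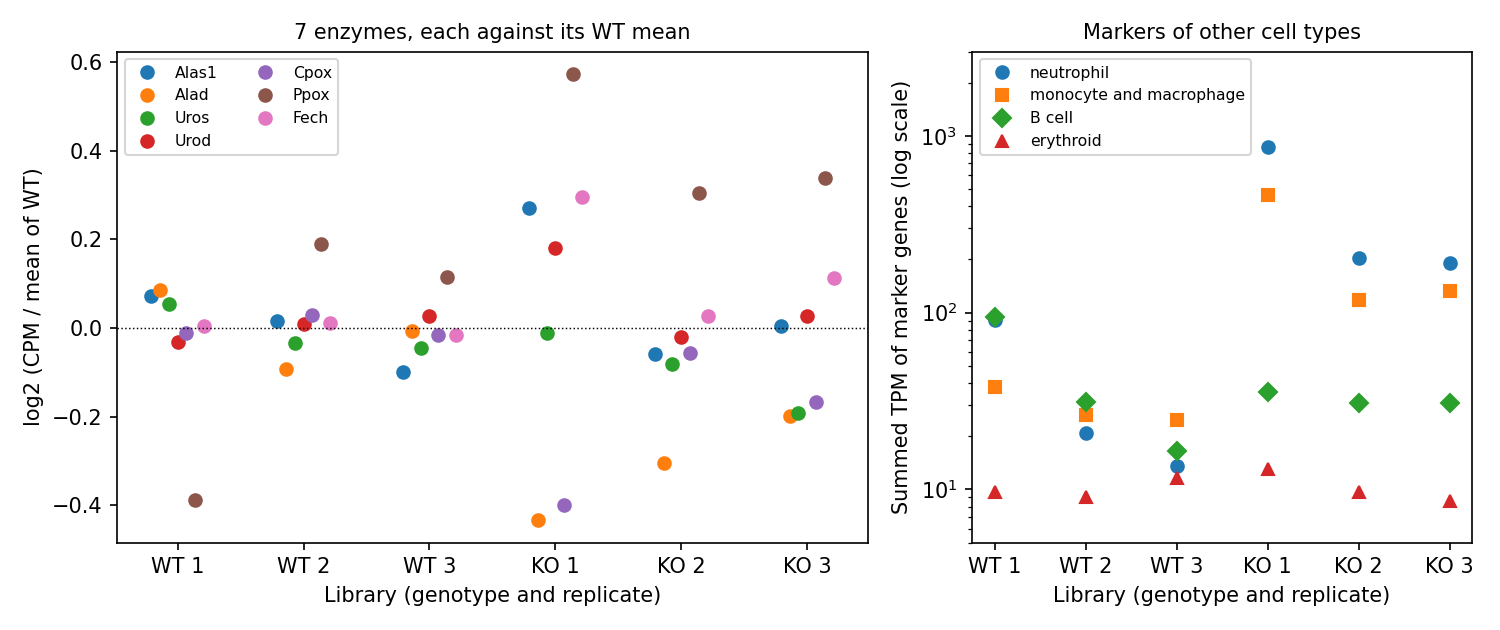
Left, log2 of each enzyme's CPM over its WT mean in each library. Right, summed TPM of marker genes of 4 other cell types on a log axis. The widest scatter of the enzymes is in KO replicate 1, where neutrophil and macrophage markers are also highest, while the erythroid sums of the groups overlap.

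Among the 3 genes whose profile over the 6 libraries was most like that of Alas1, by Pearson r of log2 CPM, were Cers4 (0.987) and Ambra1 (0.987). For Alad the 3 were Lrp5 (0.995), Mcm8 (0.994) and Gemin8 (0.993). With 6 points, 249 and 333 of 12697 protein-coding genes had an r over 0.9 with Alas1 and Alad, so closeness of this kind is common here. The log2 fold changes of Lrp5 (-0.26), Mcm8 (-0.21) and Gemin8 (-0.38) did not pass either (edgeR adjusted p from 0.144 to 0.232).

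Around the pathway, 95 further tested genes of heme, iron and succinyl-CoA handling were read from the same fit. Of these 1 passed, higher in KO, and 94 did not. Their median log2 fold change was 0.00, and 26.3% had no overlap between groups, against 22.8% of all tested genes. The gene that passed was Gucy1b1, the heme-binding subunit of soluble guanylate cyclase, at 7.27, 8.37 and 6.63 CPM in WT and 12.5, 11.7 and 12.8 CPM in KO (log2 fold change 0.73, SE 0.11, edgeR adjusted p = 0.035). Gucy1b1 also passed under 8 of the 19 other settings, among them DESeq2 (adjusted p = 2.44e-05) and edgeR without both replicates 1 (0.0227). It did not pass by edgeR when any 1 of the 6 libraries was left out (0.65 to 0.83, adjusted p from 0.0571 to 0.155). Nor did it pass by limma on TPM (0.055 to 0.0633) or by edgeR with KO replicates 2 and 3 summed (0.111). Those 2 libraries were the most alike pair, with a biological variation between them of 3.0%, against 7.1 to 14.8% for the other pairs within a group. They still differed by more than counting noise (chi-square per degree of freedom 3.55). Its list, heme attachment and hemoproteins, had a median of -0.03 over 17 tested genes, of which 1 was higher, 0 lower and 16 did not pass. The partner subunit Gucy1a1, named after its values were seen, was at 0.96 (SE 0.24, adjusted p = 0.142 by edgeR).

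**Figure D4:**
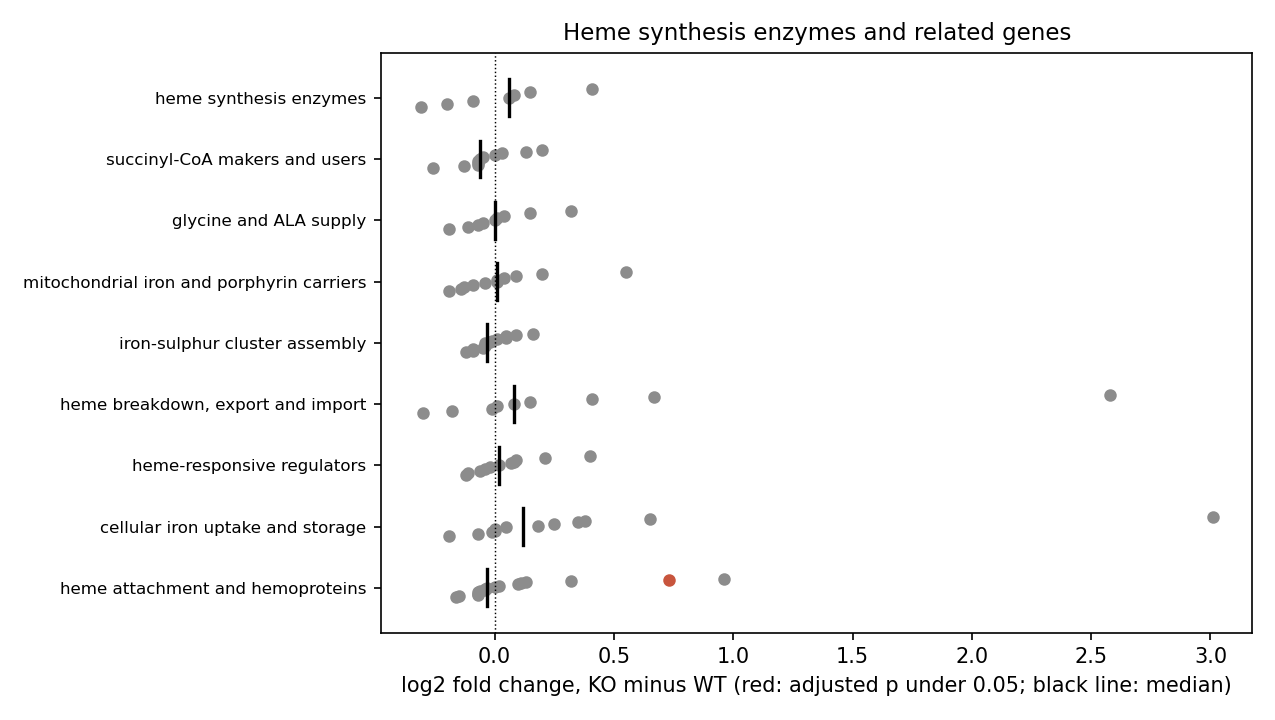
Log2 fold change, KO minus WT, of every tested gene in the 7-enzyme list and 8 related lists, with the median of each list as a black line. Gucy1b1 (red) is the only gene past the threshold, and the medians lie between -0.06 and 0.12.

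No member of the other related lists passed. In heme breakdown, export and import (9 tested, median 0.08) Hmox1 was at 16.4, 19.3 and 14.4 CPM in WT and 29.8, 22.7 and 27.1 CPM in KO. The groups did not overlap, and the log2 fold change was 0.67 (SE 0.14, edgeR adjusted p = 0.0894). DESeq2 gave Hmox1 an adjusted p of 0.000493. Macrophages also express Hmox1, and their markers differed between the groups as given above, with KO replicate 1 highest in both. The part of those cells in the Hmox1 value was not tested. Hebp1, a heme-binding protein, was low, with 0.108 to 0.333 CPM in WT and 0.538 to 1.7 CPM in KO. Among heme-responsive regulators (11 tested, median 0.02) Bach1, the heme-sensing repressor of Hmox1, was at 25.7, 23.7 and 26.3 CPM in WT and 35.2, 31.5 and 33.2 CPM in KO. At a log2 fold change of 0.40 (SE 0.07) its edgeR adjusted p of 0.0526 stood just outside the threshold, and it passed by DESeq2 (adjusted p = 0.000765). Nfe2l2, which encodes the activator NRF2, was at 0.21 and Nrf1 at -0.11, and neither passed.

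On the iron side, Slc25a37, mitoferrin 1, which carries iron into mitochondria for FECH, was at 29.5, 21.6 and 24.9 CPM in WT and 39.8, 35.7 and 35.7 CPM in KO (log2 fold change 0.55, SE 0.11, edgeR adjusted p = 0.0894). This carrier passed without WT replicate 1 (0.67, adjusted p = 0.0358) and by DESeq2 (0.000888). The other carriers of its list (11 tested, median 0.01) included Tmem14c, a porphyrin carrier, at -0.13. Among genes of cellular iron uptake and storage (12 tested, median 0.12) Ncoa4, the receptor for ferritin breakdown, was at 0.25 (SE 0.06, edgeR adjusted p = 0.147). Slc40a1, the iron exporter, was at 0.0426 to 0.167 CPM in WT and 0.508 to 0.998 CPM in KO and, like the macrophage markers, highest in KO replicate 1. Its log2 fold change was 3.01 (SE 0.53, edgeR adjusted p = 0.0596), and it passed without WT replicate 1 (3.67, adjusted p = 0.0488). The ferritin chains Ftl1 (0.38, edgeR adjusted p = 0.181) and Fth1 (0.35, 0.274), which store iron, did not pass, although KO lay above WT without overlap and highest in KO replicate 1. The part of macrophage RNA in these values was not tested. Iron-sulphur cluster assembly had a median of -0.03 over 14 genes, with the cysteine desulphurase Nfs1 at 0.16 and Hspa9 at -0.12.

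On the substrate side, the 11 tested genes that make or use succinyl-CoA had a median of -0.06, with 0 higher, 0 lower and 11 that did not pass. After Dlst, the targeted gene, the smallest p was that of Sucla2, a succinyl-CoA ligase subunit, at 0.13 (SE 0.05, edgeR adjusted p = 0.314). The 9 tested genes of glycine and aminolevulinate supply had a median of 0.00. Slc36a1, an amino acid carrier, was at 0.32 (SE 0.11, adjusted p = 0.251 by edgeR) and Lonp1, a protease that degrades ALAS1, at -0.11 (SE 0.06).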

How the data were processed

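Gene tables of 6 bulk mRNA libraries (3 WT, 3 KO) were used. The submitters' processing notes name FastQC and HISAT2. The sources used here do not give the build, annotation, counter or strand setting. For each library the authors deposited, per the file headers, estimated counts per gene and TPM. Of the genes, 23.5 to 25.2% had counts that were not whole. Counts were rounded, filtered with filterByExpr (12768 tested, 9131 not) and scaled by TMM. Differences between KO and WT were tested two-sided with the quasi-likelihood test of edgeR 4.0.16, with genotype as the only term and Benjamini-Hochberg adjustment over all tested genes (threshold 0.05). CPM are TMM-scaled, and levels between genes are compared in TPM. Positions come from GENCODE M21 (GRCm38) by Ensembl identifier (21806 matched, 93 not), windows before starts from RefSeq's table. Alternatives used DESeq2 1.42.0, limma 3.58.1 on log2(TPM + 1) or log2(TPM + 0.1), other scalings and filters, a replicate block and left-out libraries. The tests were tried on simulated data. Members, lists and tests were chosen with earlier results of these data known. Named were the 7 members, Alas2, Hmox1, Dlst, in each related list up to 4 genes past the threshold or else the 2 of smallest p, and the 3 genes most like Alas1 and Alad. Nrf1, Gucy1a1, Ftl1, Fth1, the overlapping genes and the markers were named after their values were seen. A few genes named by this rule are left out here. Software was Python 3.11.15 with pandas 2.3.3, matplotlib 3.10.9, and R 4.3.3.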

Additional observations from a re-analysis of the deposited data

How the results depend on the processing

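No enzyme of the 7 was called under any of the 19 other settings. Alad, Cpox and Uros stayed below 0 and Ppox and Fech above 0 in all 19. Alas1 turned to -0.02 without KO replicate 1 (0.15 without KO replicate 2) and Urod to -0.01 without WT replicate 1 and KO replicate 1 together, both near 0. Leaving out 1 library at a time moved the median of the 7 between -0.02 and 0.1 (0.06 with all). It moved the number of called genes over the whole table, 86 with all libraries, between 4 and 93. That number was 524 with DESeq2, 133 with no filter on low counts, 36 by limma on log2(TPM + 1) and 44 with its TPM filter, 538 without both replicates 1 and 8 with KO replicates 2 and 3 summed. The cause was not tested. With a replicate block 177 genes were called. Same-numbered samples correlated at 0.18, 0.08 and 0.08 in their deviations. WT replicates 1 and 3 correlated most with their own number, and the 0.18 was the highest between any WT and KO library. WT replicate 2 correlated more with KO replicate 3 (0.11) than with its own number. Whether the numbers mark pairs was not settled, and the main test did not pair them. Under the block Gucy1b1 did not pass (edgeR adjusted p = 0.0595), while Slc25a37 (0.0393) and Bach1 (0.0437) did. Groups that did not overlap numbered 3 of the 7 in TPM (21.4% of all tested genes) and 4 in CPM (22.8%). At 409 to 2108 counts per library, counting alone gives each level of the 7 a relative error of 2.18 to 4.94%.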
